A study of Mus musculus with 6 samples.

Results

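The genes described here build the vesicle traffic system of the cell: the coats that shape transport vesicles, the ARF and Rab GTPases that mark membranes, the clathrin adaptors, and the SNAREs that fuse vesicles with their target, with the channel of the endoplasmic reticulum (ER) through which secreted proteins enter. They were chosen by name from the array's probe annotation: every gene whose symbol begins with Tmed, Sec, Arf, Vamp, Stx or Snap and then a digit, with Cop and then a, b, e, g or z, or with Ap, the number of an adaptor complex and then b, g, m or s, or is Rab with a number. This gave 105 genes of 8251 with a symbol of their own, each read on the probe set with the highest mean signal over the 6 arrays. A few of them share only the name with the system, among them the fucosyltransferase gene Sec1 and the lipid-binding protein genes Sec14l1 and Sec14l2. C2AS12 cells, a mouse myoblast line derived from C2 muscle cells, had been infected with adenovirus carrying p300. This protein acetylates histones and serves many transcription factors as a coactivator. There were 3 treatments, namely wild-type p300 virus with doxycycline, mutant p300 virus, and wild-type p300 virus alone. No doxycycline is named for the mutant. Each was measured on 1 array after 24 h in low-serum differentiation medium and on 1 array at 0 h, before the medium was changed. The submitters describe apoptotic death as the outcome with doxycycline and with mutant p300, and survival with wild-type p300. All 6 arrays come from infected cells, and neither uninfected cells nor an empty virus is among them. The labels do not state the mutation, what doxycycline does in these cells, or whether an array holds 1 culture. The 6 samples are called biological replicates there, yet each treatment and time has 1.

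Proteins made for export enter the ER through the Sec61 channel and leave it in vesicles with a COPII coat, while the COPI coat, set on membranes by ARF GTPases, returns escaped proteins and membrane from the Golgi. The p24 proteins (Tmed genes) ride in both kinds of vesicle and help to sort cargo. Clathrin adaptors choose cargo at the Golgi, endosomes and plasma membrane, each Rab GTPase recruits the tethers and motors of its own membrane, and a SNARE of the VAMP type on the vesicle pairs with syntaxin and SNAP-25-type SNAREs on the target. Muscle precursor cells use this system to secrete matrix and growth factors, to deliver receptors and glucose transporters to the surface, and to build the membranes of the muscle fibre. These are background facts about the genes and not results of the arrays.

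A signal is the array's linear intensity for a probe set, in the scale of the deposited table. Before log2 was taken, any signal under 16.4 (the 25th percentile of the table) was raised to that floor. A probe set was tested where its mean signal over the 6 arrays reached the median of that mean, 75.2, which held for 6212 of 12422 probe sets. Called means an adjusted p under 0.05 by limma. The trimmed means of the arrays lay between 199.3 and 200, which fits a scaling to 1 target in the deposited values and does not by itself show that the arrays are comparable. Signs of RNA quality and labelling were not equal at 24 h. Actin controls gave a 3' to 5' ratio of 1.45 with doxycycline and 1.49 with mutant p300, against 1.33 with wild-type p300, and the mean log2 spike-in signal relative to all arrays was 0.13 and 0.23 against -0.18. At 0 h the actin ratios were 1.30 and 1.34 against 1.33. The Gapdh 3' to 5' ratio at 24 h was 0.859 and 0.905 against 0.875, and so did not follow the outcome. All 10 myoblast and muscle markers were measured and passed the filter, and 7 of them rose by 24 h. Their summed signal was 7194, 5594 and 4694 with doxycycline, mutant p300 and wild-type p300 at 24 h, and 3178, 2516 and 2725 in the same order at 0 h. Of 7 leukocyte markers, Ptprc, Adgre1, Itgam and Lyz2 were at or below the floor on every array, and the summed signal of the 7 was 497.1 to 592.4 at 24 h and 582.2 to 686.2 at 0 h. Cd14, at 322.4 to 416.6 over the 6 arrays, and Cd68, at 103.9 to 173, passed the filter and made most of these sums. Csf1r, at 35.2 to 76.9, did not pass it. Of 5 endothelial markers Cdh5 and Tie1 were at or below the floor on every array, and of 5 epithelial markers Epcam was. The endothelial sum was 120.4 with doxycycline and 78.9 with mutant p300, against 230.8 with wild-type p300, at 24 h, and 91.7 and 67.6 against 133.1 at 0 h. None of the 5 passed the filter, and at 24 h the gap came mostly from Tek, at 4 and 2.8 against 116.3. At 0 h it came mostly from Kdr, at 23 and 14.8 against 53.6. The epithelial sum was 228.9 to 250.4 at 24 h and 228.9 to 313.3 at 0 h. Most of it came from Cdh1, which passed the filter at 142.7 to 230.8. The adipocyte list summed to 991.8 to 1107 at 24 h and 949.2 to 1110 at 0 h, with no call. In the neuron list Snap25 was at or below the floor and Tubb3, a tubulin also made outside neurons, fell by 0.94 on the log2 scale (limma adjusted p = 0.00128), which set the list's sums of 638.4 to 788.5 at 24 h and 1217 to 1439 at 0 h. In these bulk arrays, fewer cells of a type and less RNA per cell cannot be told apart.

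Of the 105 genes, 85 passed the filter on dim probe sets and none of these 85 had a signal at the floor on any array. The other 20 had mean signals of 2.85 to 59.7 and were not tested. Of these, 7 lay at or below the floor on all 6 arrays, among them Snap25, the neuronal SNARE of synaptic vesicle release, Snap91, a clathrin assembly protein of nerve terminals, and Rab3b. Rab20, an endosomal Rab chosen after its values were seen, had signals of 29.4, 29.4 and 68.1 with doxycycline, mutant p300 and wild-type p300 at 24 h, and 19.3, 16 and 14 at 0 h. The 3 signals at 24 h were above the 3 at 0 h, and at 24 h the wild-type array was the highest.

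The comparison of 24 h with 0 h asked how the traffic genes changed over 24 h in differentiation medium, over all 3 treatments. Most of them changed little. By limma 5 of the 85 genes tested rose and 2 fell, and 78 were not called. The 5 that rose were the endosomal and Golgi Rabs Rab5a, Rab9, Rab11b and Rab6a and the Golgi syntaxin Stx5a. The 2 that fell were Ap1s1, the small chain of the Golgi clathrin adaptor AP-1, and Rab3d, a Rab of regulated secretion. These 7 are 8.24% of those tested, against 16.2% of all 6212 probe sets called (7.24% higher and 9.00% lower at 24 h). At an unadjusted p under 0.05 there were 23 of the 85 (27.1%), against 31.5% of all probe sets. The median change was 0.05 on the log2 scale, against 0.00 for all probe sets tested, and the changes ranged from -0.57 to 0.50. No gene of the 85 changed by 2-fold or more, against 3.44% of all probe sets tested. The median size of the change, whatever its sign, was 0.13, against 0.20 for all probe sets. All 3 arrays at 24 h lay above all 3 at 0 h for 12 genes (14.1%, against 12.7% of all probe sets) and below them for 10 (11.8%, against 15.5%).

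**Figure D1:**
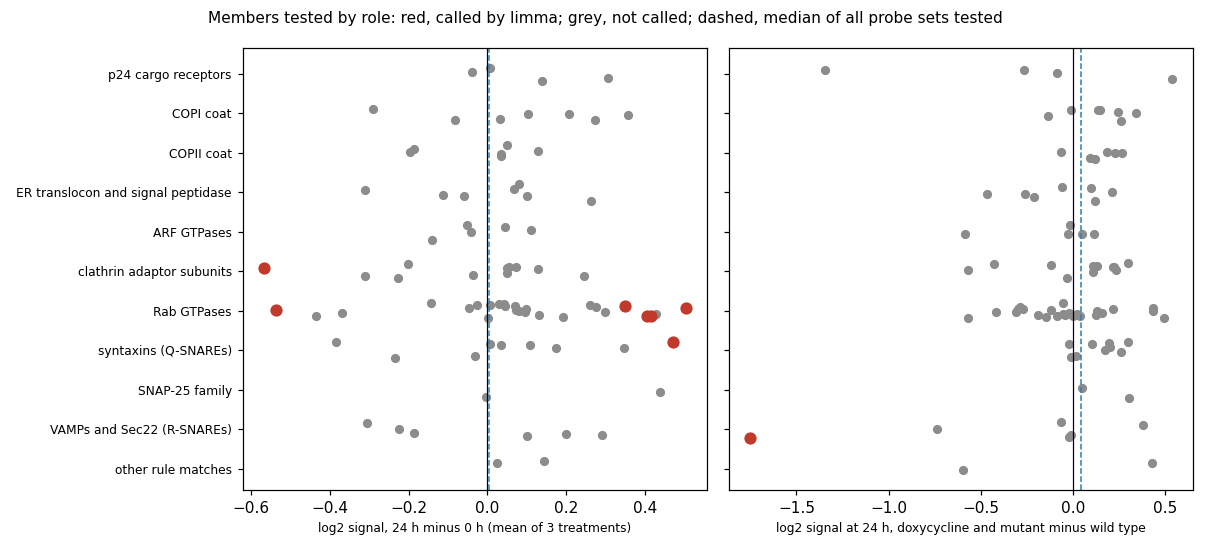
Log2 differences of the 85 genes tested, 1 point for each gene, by role. The left panel gives 24 h minus 0 h as the mean of 3 treatments and the right panel doxycycline and mutant minus wild type at 24 h; red points were called by limma, grey points were not, and the dashed line is the median of all 6212 probe sets. The 7 called changes over time lie between -0.57 and 0.50, and Vamp5 at -1.75 is the called point on the right.

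Of 33 Rab genes 26 were tested, 4 rose, 1 fell and 21 were not called. The 5 called are 19.2% of the Rabs tested, near the 16.2% of all probe sets. Rab5a, which directs fusion of early endosomes, read 758.2, 779 and 797.1 with doxycycline, mutant p300 and wild-type p300 at 24 h, and 608.6, 582.2 and 561.2 in the same order at 0 h. All 3 signals at 24 h were above all 3 at 0 h. The rise averaged 0.41 ± 0.09 log2 units over the treatments (limma adjusted p = 0.0173), where here and below ± is the SD over the 3 treatments. Rab9, which returns mannose 6-phosphate receptors from late endosomes to the Golgi, read 1103, 988 and 1132 at 24 h and 873.9, 791.5 and 771.7 at 0 h. It rose by 0.40 ± 0.13 (adjusted p = 0.0212), again with no overlap. Rab6a, a Rab of traffic within and back to the Golgi, read 1065.5, 1051.6 and 1039.8 at 24 h and 834.7, 817 and 829.8 at 0 h. The signals of each time lay close together, and the rise of 0.35 ± 0.02 was the smallest among the called genes (adjusted p = 0.0273). Rab11b, a Rab of recycling endosomes, read 554.5, 615.4 and 524 at 24 h and 397.4, 372.4 and 424.9 at 0 h. It rose by 0.50 ± 0.21 (adjusted p = 0.0171), the largest rise among the 85. Its close relative Rab11a read 728.7, 706.2 and 655.6 at 24 h and 727.9, 765.5 and 667.9 at 0 h, a change of -0.05 that was not called. The difference between the relatives was not tested.

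Rab3d, found on secretory granules, was lower at 24 h. It read 160.9, 193.4 and 130.7 at 24 h and 226.7, 288.8 and 189.5 at 0 h. The groups overlap, since the mutant array at 24 h was above the wild-type array at 0 h, but within each treatment the change was almost equal, at -0.54 ± 0.04 (limma adjusted p = 0.0199). Further Rabs whose signals at 24 h lay above those at 0 h without a call were Rab2a, of ER to Golgi traffic, at 0.19 ± 0.15, Rab4a, of fast recycling, at 0.30 ± 0.11, and Rab12 at 0.26 ± 0.16. Their adjusted p by limma were 0.214, 0.139 and 0.118. Rab25 and Rab8a had their signals at 24 h below those at 0 h, at -0.37 ± 0.27 and -0.14 ± 0.09, also without a call. Other members of the Rab5 group gave smaller or opposite changes. Rab5c, a second early endosome Rab, changed by 0.07 ± 0.22, and Rab5b by -0.43 ± 0.49, with signals of 121.9, 50.4 and 71.8 at 24 h and 111.4, 87.1 and 111.9 at 0 h. The late endosome Rab, Rab7, changed by 0.07 ± 0.17, the ER to Golgi Rab, Rab1a, by 0.03 ± 0.13, and Rab18, of ER and lipid droplets, by 0.05 ± 0.10. Rab18 had the highest mean signal among the Rabs, 1157.7, 1263.2 and 1217.6 at 24 h and 1209, 1210.6 and 1106.6 at 0 h. None of these was called.

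Rab3d, the called Rab that fell, is left out here. The upstream sequences of the 4 Rabs that rose are shown, picked by that direction. Each is the 250 bases before the annotated start in the RefSeq annotation of GRCm38.p6, 5′ to 3′ on the strand of the gene. The positions are chr17:53478984-53479233 (plus strand) for Rab5a, chr7:100607336-100607585 (plus) for Rab6a, chrX:166479868-166480117 (minus) for Rab9 and chr17:33760487-33760736 (minus) for Rab11b. Capitals mark every E-box, CANNTG, the letters bound by myogenic and other helix-loop-helix factors.
Rab5a: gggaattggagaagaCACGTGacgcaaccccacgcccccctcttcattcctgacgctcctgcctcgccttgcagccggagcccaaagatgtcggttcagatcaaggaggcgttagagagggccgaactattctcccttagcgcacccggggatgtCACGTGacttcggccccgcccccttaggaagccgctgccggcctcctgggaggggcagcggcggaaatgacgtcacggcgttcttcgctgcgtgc
Rab6a: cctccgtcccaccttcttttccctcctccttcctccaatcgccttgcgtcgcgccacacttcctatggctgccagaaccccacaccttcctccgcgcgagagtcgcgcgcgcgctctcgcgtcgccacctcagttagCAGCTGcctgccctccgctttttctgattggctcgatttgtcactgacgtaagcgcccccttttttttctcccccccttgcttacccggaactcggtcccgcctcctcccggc
Rab9: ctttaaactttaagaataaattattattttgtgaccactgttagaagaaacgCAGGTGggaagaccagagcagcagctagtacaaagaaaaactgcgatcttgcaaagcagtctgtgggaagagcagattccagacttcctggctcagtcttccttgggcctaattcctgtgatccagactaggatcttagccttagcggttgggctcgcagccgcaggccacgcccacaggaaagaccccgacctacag
Rab11b: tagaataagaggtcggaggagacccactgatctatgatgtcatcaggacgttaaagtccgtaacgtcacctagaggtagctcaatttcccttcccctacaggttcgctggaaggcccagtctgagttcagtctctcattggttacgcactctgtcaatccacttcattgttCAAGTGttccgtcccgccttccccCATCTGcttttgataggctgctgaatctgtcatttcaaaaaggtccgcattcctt
All 4 windows hold at least 1 E-box, and the myogenic form CAGCTG was found in that of Rab6a, 113 bases before the start. The windows of the other 3 genes called over time, Stx5a, which also rose, and Ap1s1 and Rab3d, which fell, hold no E-box. An E-box stood in 59.8% of the upstream windows of the 92 genes with an entry, in 55.5% of those of 3937 genes with a tested probe set and in 66.0% of all 27025. CAGCTG stood in 9.78%, 10.6% and 12.8% of them. The CRE half-site TGACG, bound by CREB-type factors, was searched on both strands and stood in 41.3%, 28.9% and 17.9%. The window of Rab5a holds it 4 times, those of Rab6a and Rab11b 1 time each, and that of Rab9 does not hold it. In the window of Rab5a 1 of the 4 overlaps an E-box and a pair overlap each other on opposite strands. An E-box reads as CANNTG on both strands. These are matches of letters and not shown to be sites of binding.

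**Figure D2:**
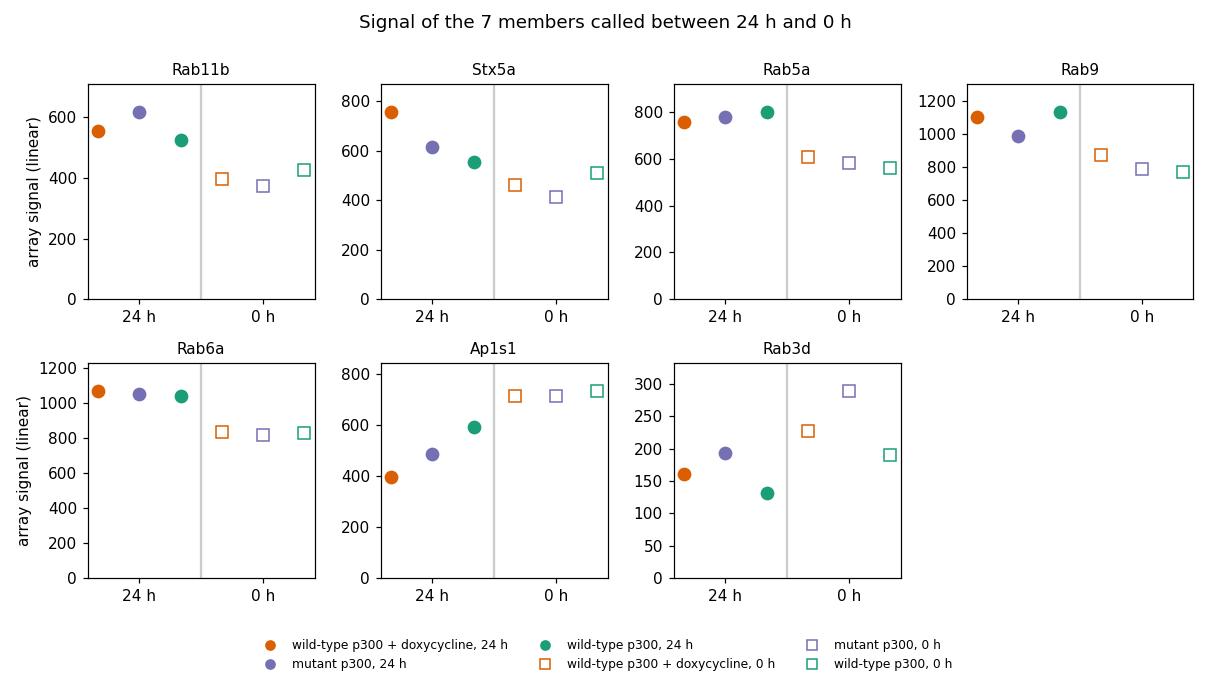
Array signal (linear, from 0) of the 7 genes called between 24 h and 0 h, 1 point for each array; filled circles are 24 h and open squares 0 h, coloured by treatment. Rab6a at 24 h lies between 1039.8 and 1065.5 and at 0 h between 817 and 834.7, while Rab3d overlaps between times and falls within each treatment.

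Among the SNAREs, Stx5a was the only 1 of 17 syntaxin, SNAP-25 and VAMP genes tested that was called for time. Stx5a pairs with Golgi and ER SNAREs on membranes between the ER and the Golgi. It read 754.3, 614.3 and 552.9 with doxycycline, mutant p300 and wild-type p300 at 24 h, and 461.2, 411.5 and 507.8 at 0 h, with no overlap and with the smallest rise in wild type. The mean rise was 0.47 ± 0.31 on the log2 scale (limma adjusted p = 0.0373). Stx4a, the plasma membrane syntaxin of glucose transporter delivery, had no overlap either, with 737.8, 732.9 and 683.4 at 24 h and 553.6, 497 and 655.6 at 0 h. Its change of 0.34 ± 0.26 was not called (adjusted p = 0.0748). Stx2, another plasma membrane syntaxin, changed by -0.38 ± 0.28 (adjusted p = 0.067). Of its partners, Snap23, the SNAP-25 relative of non-neuronal cells, changed by 0.44 ± 0.71, a spread larger than its mean, and Snap47, a less studied relative, by -0.0045 ± 0.17. Among R-SNAREs the changes ran from -0.30 to 0.29, with Vamp8, of endosomes and lysosomes, at -0.23 ± 0.11 and Sec22b, of ER and Golgi, at 0.29 ± 0.16. Neither was called.

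Of 14 clathrin adaptor genes 11 were tested, and 1 fell. Ap1s1 read 397.1, 487.2 and 592 with doxycycline, mutant p300 and wild-type p300 at 24 h, and 712.8, 712.6 and 732.9 at 0 h. The 3 signals at 0 h were nearly equal, and the fall differed in size between treatments, with a mean of -0.57 ± 0.27 (limma adjusted p = 0.0133). The other AP-1 chains did not pass: Ap1m1 at -0.23 ± 0.12, Ap1b1 at 0.05 ± 0.23 and Ap1g1 at 0.05 ± 0.19. Ap2m1, the cargo-binding chain of the plasma membrane adaptor AP-2, read 1485.1, 1622.8 and 1327.2 at 24 h and 2026.9, 1832.3 and 1639 at 0 h. All 3 signals at 24 h were below all 3 at 0 h, and the change of -0.31 ± 0.14 stayed above the threshold (adjusted p = 0.0571). The AP-3 genes Ap3b1, Ap3m1, Ap3s1 and Ap3s2, of traffic to lysosomes, changed by 0.13, -0.04, 0.07 and 0.05.

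Coats, ARF GTPases, p24 proteins and the ER channel held no call for time. Of 7 COPI genes, all tested, the changes ran from -0.29 to 0.35 with a median of 0.10. The COPI chain Copa read 1626.7, 1889.3 and 1461.2 at 24 h and 1406.7, 1377.1 and 1314.7 at 0 h, all higher at 24 h, and changed by 0.27 ± 0.16 (limma adjusted p = 0.0927). Copg1, the gamma chain of the same coat, was lower at 24 h on all 3 arrays, with 513.5, 465.6 and 445 at 24 h and 571.3, 612.1 and 555.7 at 0 h (change -0.29 ± 0.12, adjusted p = 0.0759). Copb2, the coat's beta-prime chain, read 1591.6, 1592.8 and 1750.7 at 24 h and 1512.7, 1324.3 and 1785.5 at 0 h, and the times overlapped. The 6 COPII genes tested changed by -0.20 to 0.13, with the outer coat gene Sec31a at 0.03 ± 0.15 and Sec13 at -0.20 ± 0.04. The 5 ARF genes tested changed by -0.14 to 0.11. Arf1, the main recruiter of the COPI coat, read 3516.6, 4164.4 and 3697.3 at 24 h and 4155.8, 3873.1 and 3738 at 0 h. The groups overlapped. The 4 p24 genes tested changed by -0.04 to 0.31, and Tmed7 at 0.01 ± 0.13 was near 0. The 7 genes of the ER channel and signal peptidase changed by -0.31 to 0.26. Sec61a1, the pore of the channel, read 1341.8, 1356.6 and 1240 at 24 h and 1435.7, 1298.7 and 1369.6 at 0 h and changed by -0.06 ± 0.11, and Sec11a, the signal peptidase subunit, by -0.31 ± 0.13, with adjusted p = 0.0587.

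Some genes had more than 1 probe set, and these did not always move alike. The 105 genes had 144 probe sets, and 19 genes had a second tested one. The changes over time differed in sign for 9 of the 19 (Ap1b1, Arf3, Copb2, Copg1, Rab10, Sec22b, Sec61a1, Tmed7 and Vamp8), and none of these 9 was called on either probe set. For doxycycline and mutant p300 against wild-type p300 at 24 h, 5 of the 19 differed in sign. They were Ap1b1, Sec22b, Sec62, Tmed7 and Vamp8, again without a call on either probe set. Copg1 read 384.1, 431.2 and 400.3 at 24 h and 386.1, 388.1 and 350.7 at 0 h on its second probe set, a change of 0.11. Rab6a had a second probe set that read 447.3, 334.8 and 380.4 at 24 h and 360, 297 and 353 at 0 h, a change of 0.20 that was not called. Vamp4, a SNARE of the trans-Golgi, changed by 0.10 ± 0.35 on the probe set used here. Its second one read 100.2, 110.5 and 142.9 at 24 h and 65.1, 71.1 and 85.6 at 0 h, a rise of 0.67 called by limma (adjusted p = 0.0398).

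Other genes of the same pathway that the name rule leaves out, such as clathrin, SNARE partners, GTPase regulators, tethers, cargo receptors, ER entry factors, retromer and ESCRT, gave 123 tested genes of 144 measured. By limma 9 rose, 8 fell and 106 were not called. The 17 called are 13.8%, against 16.2% of all probe sets, and their median change was -0.01. For the outcome limma called 0 of the 123 over both times and 0 at 24 h, against 0.531% and 0.773% of all probe sets. With so few calls among all probe sets, 0 of 123 does not set the pathway genes apart. Over both times 4 genes that were higher and 3 that were lower had a limma p below 0.05 before adjustment, against 13.7% of all probe sets. The same held at 24 h for 3 that were higher and 2 that were lower, against 11.5%. Rin2, an activator of Rab5, read 1371.2, 1203.5 and 1238.7 with doxycycline, mutant p300 and wild-type p300 at 24 h, and 532.2, 394.4 and 555.8 at 0 h. It rose by 1.38 ± 0.23 on the log2 scale (adjusted p = 0.00011) and was the 1 gene of the 123 that changed by 2-fold or more. Use1, an ER SNARE, rose by 0.73 ± 0.22, Stam, an ESCRT protein that sorts ubiquitinated receptors, by 0.71 ± 0.20, and Snx17, a sorting nexin of receptor recycling, by 0.59 ± 0.22. Ddost, a subunit of the oligosaccharyltransferase, fell by 0.75 ± 0.38, the retromer gene Vps26a by 0.54 ± 0.18, the cargo lectin gene Lman2 by 0.53 ± 0.34 and the translocon partner Ssr1 by 0.51 ± 0.13. Of 18 ER entry genes tested 0 rose and 3 fell, a share of 16.7% that is near that of all probe sets.

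The calls over time changed with the scaling and with which array was left out. Leaving out either array of a treatment takes that treatment out of the paired change over time. Both ways give the same estimates, so they are not separate checks. Scaled to the spike-in controls, where the median change of all probe sets was -0.12, Ap1s1 and Rab3d alone were called, and the rises of the 4 Rabs and Stx5a were 0.23 to 0.38 with adjusted p = 0.294 to 0.589. Without the doxycycline array at 0 h 1 gene was called, and without the mutant array at 0 h, the doxycycline array at 24 h or the mutant array at 24 h 0 were (19, 11, 19 and 11 at an unadjusted p under 0.05), while 11 were called without the wild-type array at 24 h and 12 without that at 0 h.

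The comparison of doxycycline and mutant p300 with wild-type p300 asked which traffic genes differed between treatments described to end in death and in survival. Death is the described outcome of a treatment and was not read on the arrays, and the 0 h arrays precede the change of medium. Vamp5, a VAMP-type SNARE also called myobrevin and known from muscle, was lower with doxycycline and mutant p300 at both times. Tmed4, a p24 protein, was higher. Over both times limma called these 2 of the 85 genes, 1 lower and 1 higher, and at 24 h alone it called Vamp5. Of all probe sets tested, 0.531% were called over both times (0.0322% higher and 0.499% lower) and 0.773% at 24 h (0.0483% higher and 0.724% lower). At an unadjusted p under 0.05 there were 9 of the 85 (10.6%) over both times, against 13.7% of all probe sets, and 9 (10.6%) at 24 h, against 11.5%. The median difference at 24 h was 0.02 on the log2 scale for the 85, against 0.04 for all probe sets. At least 2-fold apart at 24 h were 2 of the 85, Vamp5 and Tmed9, against 2.70% of all probe sets. Survival rests on 1 array at each time, which the fit takes to vary like the others. The fit over both times also takes the arrays of a treatment at 0 h and 24 h as independent, although they share that treatment.

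Vamp5 read 98.3 and 122.1 with doxycycline and mutant p300, against 369 with wild-type p300, at 24 h. At 0 h it read 149.9 and 132.8, against 327.3 with wild-type p300. All 4 doxycycline and mutant arrays lay below both wild-type arrays, and the nearest of them was less than 0.5 of the lower wild-type signal. The difference over both times was -1.48 ± 0.18 on the log2 scale (SE of the fit), 2.80-fold lower, with limma adjusted p = 0.0135. It was -1.75 at 24 h (adjusted p = 0.0181) and -1.21 at 0 h. Vamp5 and Tmed4 have 1 probe set each, so no second one could be compared. The actin 3' to 5' ratios were 1.30 and 1.34 against 1.33 at 0 h. At 24 h the actin ratios moved with the outcome and the Gapdh ratios did not. The part of RNA quality in the difference was not tested at either time. Of the 10 muscle markers 6 were higher and 4 lower with doxycycline and mutant p300 than with wild-type p300 at 24 h, and none was called for the outcome. The part of muscle cell content in the difference was not tested. The summed signal of the dim endothelial list was lower with doxycycline and mutant p300 at both times, as Vamp5 was, but mostly through Tek at 24 h and Kdr at 0 h. Its defining genes Cdh5 and Tie1 were at or below the floor on all arrays, and the list's part in the result was not tested. Leaving out the wild-type array at 24 h left a difference of -1.21 over both times, no longer called (adjusted p = 0.5), and without the filter on dim probe sets or without the variance trend it was not called either (adjusted p = 0.278 and 0.0697). At 24 h the call was lost with the same changes (0.176 and 0.0594) and with scaling to the median (0.0697).

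Vamp5 lies next to Vamp8 and Rnf181 in the annotation's gene order. Vamp8, an endosomal SNARE, read 659 and 695.3 against 686.3 with wild-type p300 at 24 h and 836.7 and 763.4 against 786.4 at 0 h. Its difference over both times was 0.00 ± 0.11 (SE of the fit), and the difference between the neighbours was not tested. The second tested probe set of Vamp8 gave 0.18 ± 0.14, also not called. Both Vamp8 probe sets carry a suffix for possible cross-hybridisation. The upstream windows of the 2 genes that differed by outcome are shown for their E-boxes in capitals, 250 bases before the annotated RefSeq start in GRCm38.p6, at chr6:72380469-72380718 (minus strand) for Vamp5 and chr11:6274838-6275087 (minus strand) for Tmed4.
Vamp5: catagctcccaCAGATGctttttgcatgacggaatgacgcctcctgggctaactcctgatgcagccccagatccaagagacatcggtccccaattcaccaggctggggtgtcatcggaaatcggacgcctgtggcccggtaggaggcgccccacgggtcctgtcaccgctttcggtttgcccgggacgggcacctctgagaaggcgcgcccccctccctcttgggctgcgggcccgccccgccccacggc
Tmed4: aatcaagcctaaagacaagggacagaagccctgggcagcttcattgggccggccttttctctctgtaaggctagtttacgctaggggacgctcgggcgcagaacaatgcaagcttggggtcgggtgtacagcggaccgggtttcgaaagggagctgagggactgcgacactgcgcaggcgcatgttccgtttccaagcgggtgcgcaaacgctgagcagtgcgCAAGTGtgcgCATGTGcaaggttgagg
The window of Vamp5 holds 1 E-box, 239 bases before the start, and that of Tmed4 holds 2, at 27 and 17 bases. The half-site TGACG occurs 2 times in the window of Vamp5, at 224 and 216 bases, and does not occur in that of Tmed4. Nothing follows from this about the binding of p300 or its partners.

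Tmed4, a p24 protein of ER and Golgi vesicles, read 812.8 and 880.3 with doxycycline and mutant p300, against 581.6 with wild-type p300, at 24 h. At 0 h it read 704.9 and 724.4, against 431.6. All 4 doxycycline and mutant arrays were above both wild-type arrays, and within each treatment the signal at 24 h was above that at 0 h. The difference over both times was 0.63 ± 0.11 on the log2 scale (SE of the fit), 1.55-fold higher, with limma adjusted p = 0.046. At 24 h alone it was 0.54 and not called (adjusted p = 0.253). The call lay close to the threshold. It was lost with quantile normalization (adjusted p = 0.0508), with scaling to the median (0.0722) or to the spike-in controls (0.237), without the variance trend or the filter, and without any 1 array other than the doxycycline array at 24 h.

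**Figure D3:**
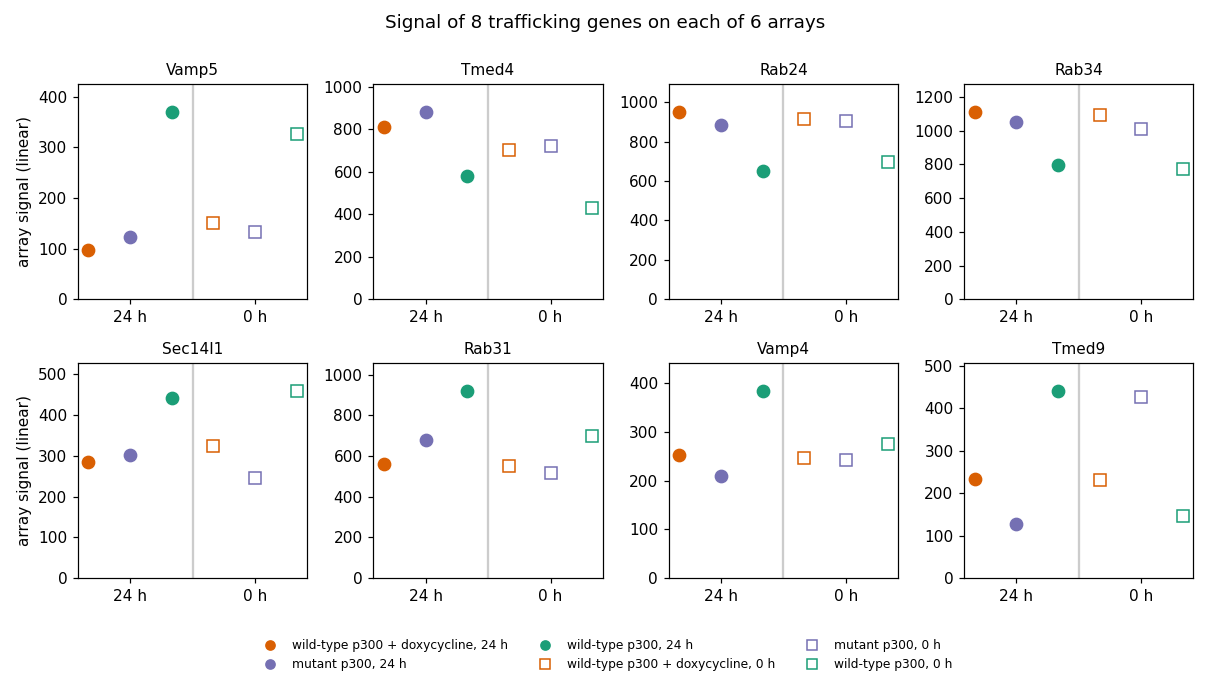
Array signal (linear, from 0) of 8 genes, 1 point for each array; filled circles are 24 h and open squares 0 h, with doxycycline and mutant p300 left of wild-type p300. Vamp5 is at 98.3 to 149.9 with doxycycline and mutant p300 and at 327.3 and 369 with wild-type p300, while Tmed9 changes its order between the times.

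Counting the genes in which the 4 doxycycline and mutant arrays did not overlap with the wild-type arrays gave shares near those of all probe sets. In 10 of 85 genes all 4 were above both (11.8%, against 9.39% of all probe sets), and in 7 all 4 were below (8.24%, against 7.50%). The other 7 above, beside Tmed4, Rab24 and Rab34, were Sec16a, Sec23a and Sec62 of the ER, Rab11a, the AP-3 chains Ap3b1 and Ap3s1, and Stx12 of endosomes, and the 7 below were Vamp5, Sec14l1, Rab31, Vamp4, Copb2, Rab1a and Rab21. Among those above were Rab24, an atypical Rab linked to autophagy, and Rab34, a Rab of the Golgi. Rab24 read 948.5 and 884.6 against 649.2 with wild-type p300 at 24 h and 913.2 and 905 against 697.2 at 0 h. Rab34 read 1108.9 and 1052.6 against 799.3 at 24 h and 1096.3 and 1010 against 773.2 at 0 h. Both differences over both times were 0.44 on the log2 scale, with limma adjusted p = 0.112 and 0.111, so neither was called. Among those below were Sec14l1, Rab31 and Vamp4. Sec14l1, a lipid-binding protein with no part in the coats, read 285.9 and 301.2 against 443 at 24 h and 323.5 and 245 against 459 at 0 h (difference over both times -0.65, adjusted p = 0.0992). Its second probe set read 66.8 and 99.1 against 156.2 at 24 h and 89.5 and 71.4 against 103.3 at 0 h, again lower with doxycycline and mutant p300 at each time. Rab31, of traffic between Golgi and endosomes, read 562.7 and 680.2 against 918.3 at 24 h and 549 and 518.4 against 699.3 at 0 h (difference -0.48, adjusted p = 0.129). Its second probe set read 175.1 and 169.1 against 228.3 at 24 h and 182.2 and 154 against 178.4 at 0 h, so that the groups overlapped, and the difference there was -0.25. Copb2 and Sec62 overlapped on a second tested probe set too, and Sec23a did not. Vamp4 read 251.5 and 210.1 against 383.5 at 24 h and 247.2 and 242.1 against 275.2 at 0 h (difference -0.45, adjusted p = 0.27). Its second probe set read 100.2 and 110.5 against 142.9 at 24 h and 65.1 and 71.1 against 85.6 at 0 h, lower at each time but with an overlap between times. Scaled to the spike-in controls, where the median of all probe sets over both times was -0.13, Tmed4 was not called, and Vamp5, Sec14l1 (-0.81, adjusted p = 0.00783) and Rab31 (-0.64, adjusted p = 0.0456) were called lower.

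Of the other genes with the largest differences at 24 h, none was called. Those higher with doxycycline and mutant p300 were Rab3d at 0.43, Sec23ip, a partner of the COPII coat, at 0.43, Vamp2, the SNARE of synaptic and glucose transporter vesicles, at 0.38, Copz2, a COPI zeta chain, at 0.34 and Snap23 at 0.30 on the log2 scale. Those lower were Arf6, the ARF of the plasma membrane, at -0.58, Ap2b1, the beta chain of AP-2, at -0.57 and Sec63, a helper of the ER channel, at -0.47. The difference of Ap2b1 came from the mutant array, with 161.6 with doxycycline and 77.2 with mutant p300 against 166 with wild-type p300, and was -0.04 without it. Copz2 was at 0.17 without the mutant array. Adjusted p lay between 0.549 and 0.778. Scaled to the spike-in controls, where the median difference at 24 h was -0.32 for all probe sets, 6 of the 85 were called, all lower: Vamp5, Tmed9, Vamp4, Sec14l1, Rab31 and Ap1s1, at -2.12 to -0.79. By role, the median differences at 24 h ran from -0.17 for the p24 genes to 0.18 for the SNAP-25 family. The COPI coat stood at 0.15, the COPII coat at 0.15, the syntaxins at 0.17 and the Rabs at -0.03.

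**Figure D4:**
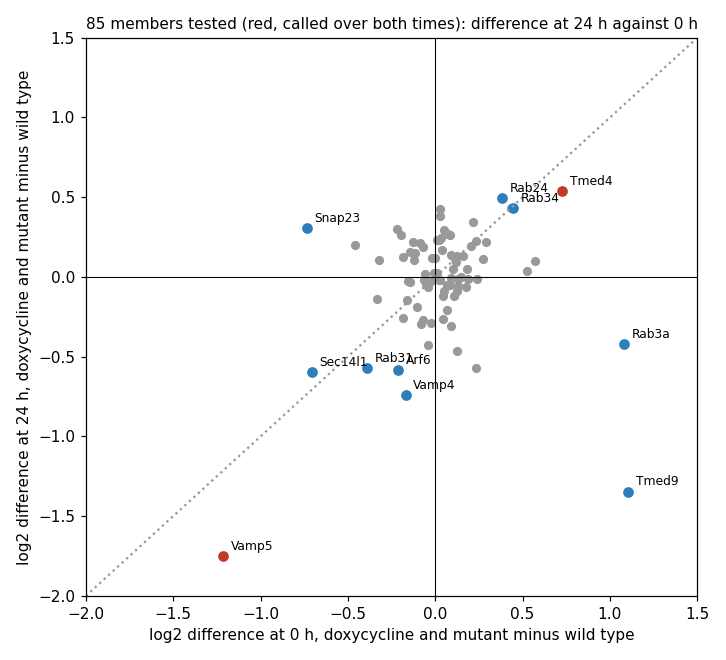
Log2 difference of doxycycline and mutant p300 minus wild-type p300 at 24 h (vertical) against 0 h (horizontal) for the 85 genes tested; red points were called over both times, blue points are named genes and the dotted line marks equal differences. Vamp5 at -1.75 (24 h) and -1.21 (0 h) and Tmed4 at 0.54 (24 h) and 0.73 (0 h) keep their sign, while Tmed9 and Rab3a lie on opposite sides at the 2 times.

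Whether the change over 24 h differed between outcomes was tested as an interaction of outcome and time. By limma 0 of the 85 genes and 0 of all 6212 probe sets (0%) were called, with 3 (3.53%) and 197 (3.17%) at an unadjusted p under 0.05. The 3 were Tmed9, Rab3a and Snap23. Tmed9, a p24 protein of the early secretory pathway, read 233.9, 128.5 and 440.8 with doxycycline, mutant p300 and wild-type p300 at 24 h, and 231.4, 426.6 and 146 at 0 h. With wild-type p300 the signal at 24 h was above that at 0 h, with mutant p300 it was below, and with doxycycline the arrays were nearly equal. The interaction was -2.45 on the log2 scale (unadjusted p = 0.00261, limma adjusted p = 1), and with any 1 of the 4 doxycycline and mutant arrays left out it was called, at -2.89 to -2.01. Those fits have 1 residual degree of freedom. Rab3a, of synaptic vesicles and granules, read 124.4, 107.9 and 154.9 at 24 h and 143.1, 156.8 and 70.8 at 0 h, an interaction of -1.50. The wild-type array at 0 h stood apart from the other 5. Snap23 read 180.1, 199.4 and 153.5 at 24 h and 136, 89.3 and 183.4 at 0 h, an interaction of 1.04.

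Mutant p300 and doxycycline, the 2 treatments that end in death, were set against each other as a description, since each has 1 array at a time. At 24 h 4 of the 85 genes stood at least 2-fold apart, against 2.27% of all probe sets. Rab5b read 50.4 with mutant p300 and 121.9 with doxycycline, a log2 difference of -1.27. Vamp3, a SNARE of recycling endosomes, read 236.2 and 112.6 in the same order (1.07), and Ap2b1 read 77.2 and 161.6 (-1.07). The syntaxin Stx3, of the apical plasma membrane in epithelial cells, read 76.8 and 155.7 (-1.02) and was named after its values were seen. At 0 h the same 4 genes differed by -0.35, 0.32, 0.24 and -0.07.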

How the data were processed

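Total RNA labelled with biotin was hybridised to 6 oligonucleotide arrays, 1 for each of 3 treatments and 2 times. The deposited values are linear array intensity for each probe set. MAS5 is the program named in the submitters' processing notes, with no version or settings. The table holds 12488 probe sets and no detection calls. The 66 control probe sets were left out. Gene symbols came from the platform annotation provided with the data, where 10833 of 12422 probe sets had 1 symbol, 396 several and 1193 none, and several-symbol probe sets were named for no gene.

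Values were used as deposited, set to a floor of 16.4 and logged (log2). Each fit used R 4.3.3 and limma 3.58.1 (lmFit, eBayes with a variance trend, 2-sided) on all 6212 tested probe sets, with Benjamini-Hochberg adjustment over them. Time had treatment as a block (2 residual degrees of freedom). Outcome over both times had time as a term (3). Outcome at 24 h and the interaction came from 1 mean for each outcome and time (2). The labels call the samples biological replicates but give 1 per treatment and time and name no cultures, so each p reflects the spread among these 6 arrays alone, which may be technical, and their number limits the precision. A change over 24 h may be of the medium or of the time, which cannot be told apart. The fits were run on simulated data with 200 probe sets changed and independent noise on each array. A log2 change of 0.5 was recovered in 80% for time, 81.5% for outcome over both times and 46% at 24 h. For a change of 1 the shares were 100%, 99.5% and 91.5%. The noise held no treatment effect, so dependence between the times of a treatment was not tested. Probe sets of like mean signal were all given the median residual SD of their group. Differences in spread between genes were therefore not simulated, and the shares may be too high for these data. Of the 85 members tested, 5 were read on probe sets with a suffix for possible cross-hybridisation.

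Genes named are those called, the 8 with the largest differences at 24 h in each direction, the gene of the highest mean signal in each role, those whose probe sets differed in sign over time, the 3 with the largest difference between mutant and doxycycline at 24 h, and the 4 largest called pathway genes in each direction. Any other gene named was chosen after its values were seen. The members, lists and tests were chosen with earlier results of these data known. Upstream windows used the first start listed for a gene, and 92 of the 105 genes matched. Alternatives covered normalization, floor, filter, variance trend, probe sets, the treatment block and leaving out each array.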

Additional observations from a re-analysis of the deposited data

How the results depend on the processing

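The count of the 85 genes called over time was 7. It became 2 with scaling to the spike-in controls, 1 without the variance trend, 3 without the treatment block and 0 without the filter (17 at an unadjusted p under 0.05), and lay between 0 and 12 when 1 array was left out. With the other 6 alternatives (quantile normalization, median scaling, a floor at the 10th percentile, log2(signal + 16), a filter at the 60th percentile, the mean of a gene's probe sets) it was 6 to 9. The count over both times, 2, became 1 with quantile normalization or median scaling, 3 with scaling to the spike-in controls (Vamp5, Sec14l1 and Rab31, all lower, with Tmed4 lost), 0 without the filter or the variance trend (13 and 8 at an unadjusted p under 0.05), and 0 to 2 with 1 array left out. At 24 h, 1 became 6 with scaling to the spike-in controls, 0 with median scaling, without the filter or without the variance trend (6, 10 and 7 at an unadjusted p under 0.05), and 1 to 3 with 1 array left out. The interaction count, 0, became 1 without the filter, the dim gene Rab33a, and 1 with any doxycycline or mutant array left out. No value could be had for the interaction without a wild-type array, or for 24 h without the wild-type array of that time. Over all 6212 probe sets the counts were 1009 for time, 33 over both times, 48 at 24 h and 0 for the interaction. They became 0, 10, 192 and 245 without the filter, 699, 1, 11 and 0 without the variance trend, and 619, 237, 426 and 1 with scaling to the spike-in controls. Without the treatment block 514 were called for time, and with median scaling 16 at 24 h. With 1 array left out they lay between 479 and 1283 for time, 0 and 50 over both times, 45 and 351 at 24 h, and 6 and 43 for the interaction. The cause was not tested. No called gene changed its direction under an alternative in which it was fitted. At 24 h Copz2 and Snap23, which were not called, turned to -0.021 and -0.061 with scaling to the spike-in controls. The fit for time pairs 24 h with 0 h within each treatment, and the count without that block is given above. The labels give no replicate numbers by which other samples could be paired.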
